A study of Mus musculus with 24 samples.

Results

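The genes described here are the amino acid transporter families of mouse osteoblast cultures: the protein-coding genes of the count table whose symbols begin with Slc1a, Slc3a, Slc6a, Slc7a, Slc36a, Slc38a or Slc43a followed by a digit. Of 64 such genes, 41 had 10 or more counts in at least 3 of the 24 libraries and are called members, against 14365 protein-coding genes of the whole table that met the same minimum. The symbols alone chose them, so 1 of the 41, Slc7a6os, is no transporter but a gene named for its place beside Slc7a6, and some Slc6 members carry other substrates than amino acids. Polyadenylated RNA was sequenced from bone-forming cells (osteoblasts) that had been isolated from newborn calvariae, the flat bones of the skull, of wild-type (WT) mice or mice of a high bone mass line (HBM), with the bones of several pups pooled for each culture. It was collected before differentiation (day 0) and on days 10, 15 and 21 of it, from 3 cultures per genotype, which gave 8 groups of 3 libraries. Each genotype has a culture from batch 18, from batch 19 and from batch 21. The HBM mutation and the number of pups in a pool are not given in the labels. The same number on different days was read as 1 culture sampled again.

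Amino acid transporters fall into a few working types. Exchangers such as the Slc7 light chains, which need the heavy chain Slc3a2 to reach the cell surface, swap one amino acid for another, whereas sodium-coupled carriers of the Slc1, Slc6 and Slc38 families load amino acids against their gradient and proton-coupled Slc36 carriers move small ones. Several of these genes are textbook targets of Atf4, the transcription factor that is translated when amino acids run short and that osteoblasts need for collagen production, a demanding sink for proline and glycine.

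Libraries held 28039095 to 46987734 counts. Levels are given as CPM (counts divided by the TMM-scaled library total, per 1e+06), in the order of batches 18, 19 and 21, and changes are log2 estimates ± standard error from edgeR's quasi-likelihood test with Benjamini-Hochberg adjustment over the 16592 genes tested, called at an adjusted p under 0.05. The p-values measure the spread between the cultures of pooled pups in a group. They treat the 24 libraries as independent, although these come from 6 cultures sampled on 4 days. Where a fit is said to have a culture or batch block, they measure the spread of differences within cultures or batches instead. The 8 osteoblast markers summed to 20593 to 35673 CPM at WT day 0 and to 29829 to 52297 at WT day 10, and none was at 0. Col1a1 made up most of each sum, at 22289, 32964 and 17992 CPM at WT day 0. Ibsp stood at 0.136, 0.256 and 0.278 CPM then, and Bglap at 0.0909, 0.0853 and 0.222. From day 0 to day 10 in WT, 4 of the 8 were called higher and 1 lower, beside 12.2% and 14.1% of all genes. Other cell types left RNA as well. The 10 macrophage markers summed to 55.1 to 1384 CPM at WT day 0 and 2925 to 9391 at day 10 (HBM 43 to 1108, then 1704 to 12168), with batch 21 highest on each of these days, and 8 cartilage markers summed to 16619 and 9041 CPM in the WT and HBM day 0 libraries of batch 19 against 867 to 4144 in the other day 0 libraries. In bulk RNA, fewer cells of a type and less RNA per cell cannot be told apart.

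Per kilobase of exon, the level of the members spanned several orders of magnitude and a handful made up most of it. At WT day 0 the 5 most abundant were Slc7a5, which carries large neutral amino acids such as leucine (86.2 ± 68.5 CPM per kilobase, SD, n = 3), its heavy chain Slc3a2 (68.3 ± 29.0), the Slc38 member Slc38a10 (60.4 ± 9.19), the alanine, serine and cysteine carrier Slc1a4 (31.0 ± 11.9) and the taurine carrier Slc6a6 (30.9 ± 12.2). These 5 held 62.5% of the summed level. At WT day 21 the order was Slc6a6 (98.0 ± 15.5), Slc38a10 (86.7 ± 15.0), Slc3a2 (37.4 ± 7.28), the glutamine and alanine carrier Slc38a2 (24.2 ± 2.76) and the creatine carrier Slc6a8 (20.04 ± 1.82), and Slc7a5 stood seventh at 14.8 ± 13.6. Neighbours in these orders mostly could not be separated: the ranges of 38 of 40 neighbouring pairs overlapped at WT day 0 and of 35 of 40 at WT day 21. In HBM at day 21, Slc38a10 (105 ± 8.35) stood first without overlapping Slc6a6 (81.1 ± 8.69), followed by Slc3a2 (51.4 ± 20.2) and Slc7a5 (41.9 ± 34.7). At the low end lay members with few reads, such as Slc1a2, Slc3a1, Slc38a3, Slc6a15, Slc7a10 and Slc7a13. Slc7a13 had 10 or more counts in 6 libraries, the fewest of the members, and Slc6a19, just outside, had 10 or more in 2. The 23 genes below the minimum were Slc1a7, Slc36a3, Slc38a5, Slc38a8, Slc38a11, Slc7a9, Slc7a12, Slc7a14, Slc7a15 and Slc6 genes (among them Slc6a3, Slc6a4, Slc6a5, Slc6a11, Slc6a12, Slc6a13, Slc6a14, Slc6a16, Slc6a18, Slc6a19, Slc6a20a, Slc6a20b and Slc6a21), with at most 15 counts in any library.

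**Figure D1:**
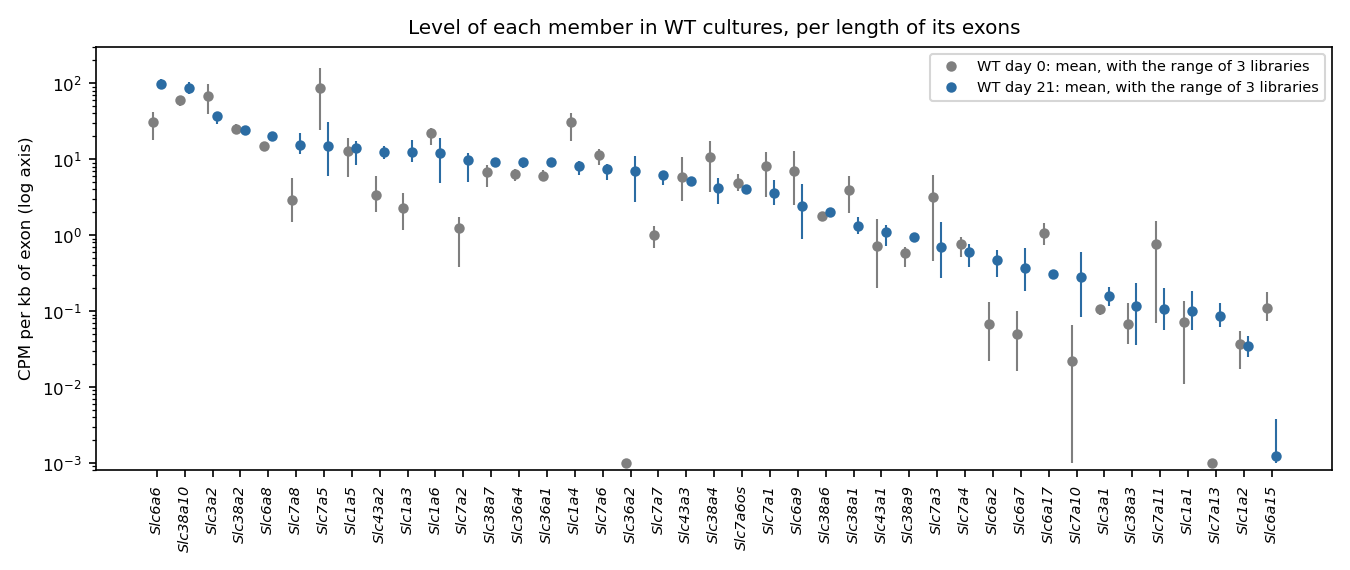
Level of the 41 members in WT cultures at day 0 (grey) and day 21 (blue), in CPM per kilobase of exon on a log axis, ordered by the day 21 mean. Points are means and bars the range of 3 libraries, and values of 0 are drawn at the lower edge. The means of Slc7a5 and Slc1a4 lie far lower at day 21 than at day 0, and Slc6a6 and Slc38a10 lead at day 21. The Slc7a5 ranges overlap (24.1 to 160 at day 0, 5.95 to 30.4 at day 21), and its batch 19 culture was higher at day 21 (113 CPM) than at day 0 (89.3 CPM).

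The first 10 days of differentiation changed the transporters in both directions. Of the 41 members in WT, day 10 exceeded day 0 for 8 and fell short of it for 10 at the threshold. Over all 16592 genes tested, 26.2% were called, 12.2% higher and 14.1% lower. In HBM the counts were 10 up and 8 down, beside 26.5% of all genes, 14.1% higher and 12.4% lower. The median change of the members was 0.18 in WT and 0.17 in HBM, against -0.0151 and -0.00187 over all genes. Both genotypes shared 14 of the 18 called in each, 6 higher (Slc1a3, Slc36a2, Slc7a13, Slc7a2, Slc7a7, Slc7a8) and 8 lower (Slc1a4, Slc38a1, Slc3a2, Slc6a17, Slc7a1, Slc7a11, Slc7a3, Slc7a5). By family, the 7 light chains of the Slc7 exchangers had 3 up and 2 down in each genotype and the 4 cationic carriers 1 up and 2 down. The 6 glutamate and neutral carriers of Slc1 had 1 up and 1 down in each. Of the 8 Slc38 carriers, 1 was down in each genotype and 1 up in HBM. The 3 proton-coupled Slc36 carriers had 2 up and none down in each genotype, and the 3 Slc43 facilitators had 1 up in HBM. The 7 Slc6 carriers had 1 up and 3 down in WT and 1 up and 1 down in HBM. None of the 41 was called for a difference of this change between the genotypes (0% of all genes), with 1 member and 537 of all 16592 genes at an unadjusted p under 0.05. A call in 1 genotype alone thus does not show that the genotypes differ. Slc36a2, Slc7a13 and Slc7a10 met the count minimum through the later days and Slc6a15 mainly through day 0, so a difference from the other days was built into their choice. Without batch 18 at day 0 the called members were 7 up and 4 down in WT (20.8% of all genes called in that fit) and 6 up and 5 down in HBM (16.6%). A model of only the groups compared gave 0 up and 2 down in WT (3.10%) and 3 up and 6 down in HBM (13.9%).

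**Figure D2:**
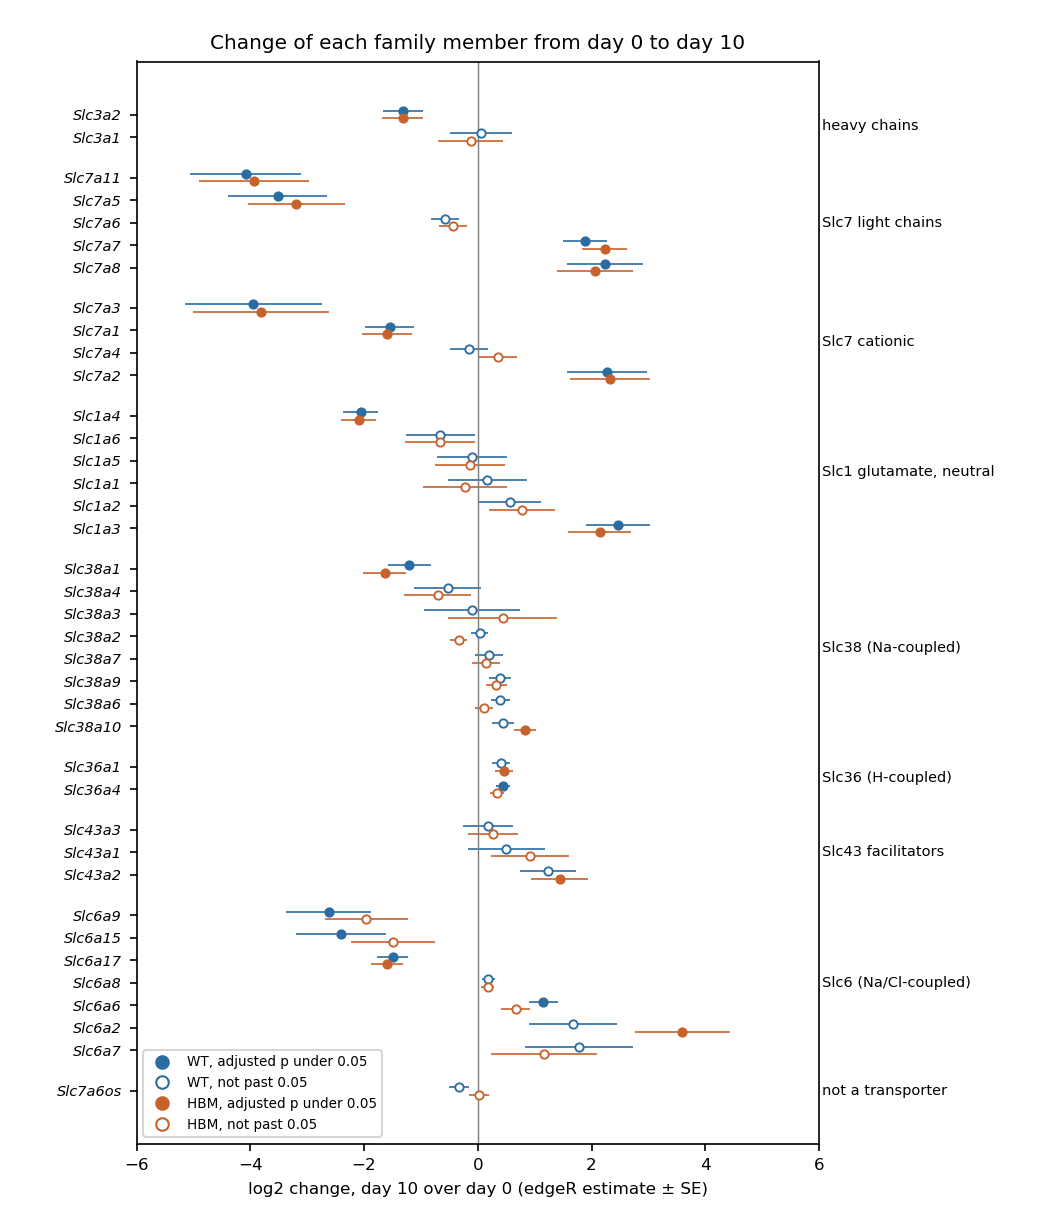
Estimated log2 change from day 0 to day 10 with its standard error, for WT (blue) and HBM (orange), grouped by transporter type. Filled points passed the adjusted threshold. Slc7a11, Slc7a3 and Slc7a5 lie furthest to the left in both genotypes. Slc36a2, Slc7a13 and Slc7a10, with 5 or fewer counts at day 0 in each genotype, are left out because their fitted change is poorly resolved. For Slc36a2 and Slc7a13 in WT, with 0 counts at day 0, it has no fixed size.

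The members that fell furthest in both genotypes were Slc7a11, Slc7a3 and Slc7a5. Slc7a5 (ENSMUSG00000040010, chr8:121881150-121907694 in mm10, minus strand) had WT levels of 592, 89.3 and 278 CPM before differentiation and 25.1, 32.4 and 26.4 by day 10. In HBM it stood at 616, 146 and 395, then at 44.0, 55.4 and 27.4. Day 0 and day 10 did not overlap in either genotype, and the batch 19 library was the lowest day 0 value in both. The fall was 3.52 ± 0.87 in WT (adjusted p = 0.00673) and 3.19 ± 0.86 in HBM (0.0111) on the log2 scale. The batch 19 libraries of day 0 were also those with the highest cartilage markers, whose part in this result was not tested, and the Slc7a5 calls held without them. Slc3a2 (ENSMUSG00000010095, chr19:8706882-8723369, minus strand), the heavy chain that pairs with Slc7a5 and Slc7a11, went from 341, 137 and 245 CPM to 89.8, 83.8 and 118 in WT and from 352, 119 and 316 to 92.1, 104 and 119 in HBM. The groups were separate, in HBM by a margin of less than 1 CPM. Slc3a2 fell by 1.31 ± 0.36 (0.0118) and 1.32 ± 0.36 (0.0113), less than its Slc7a5 partner, although the difference between those genes was not tested. The Slc3a2 call was lost in WT without the batch 18 library of day 0 (adjusted p = 0.0679) or the batch 19 library of day 10 (0.053), and in HBM without the batch 18 library of day 0 (0.0683).

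Slc7a11 (ENSMUSG00000027737, chr3:49892526-50443614, minus strand) imports cystine for glutathione in exchange for glutamate. It stood at 21.4, 0.966 and 9.20 CPM in WT at day 0 and 0.751, 0.318 and 0.789 at day 10. In HBM it stood at 27.1, 2.60 and 11.9, then at 0.952, 0.882 and 0.870. Day 0 and day 10 were separate in each genotype, with batch 19 again lowest at day 0. It fell by 4.08 ± 0.98 in WT (adjusted p = 0.00567) and by 3.94 ± 0.97 in HBM (0.00641), the largest falls among the members. Slc1a4 (ENSMUSG00000020142, chr11:20302180-20332713, minus strand) was tighter, at 158, 68.7 and 138 CPM in WT at day 0 and 29.2, 29.4 and 28.7 at day 10, and at 170.2, 84.7 and 162 then 31.7, 34.3 and 31.7 in HBM. Every day 0 library lay above every day 10 library. Slc1a4 fell by 2.06 ± 0.31 (0.000176) and 2.09 ± 0.31 (0.000152), and the calls of Slc1a4 and Slc7a5 held without any 1 library and in a model of only the groups compared. The WT call of Slc7a11 held without any 1 library and was lost in that smaller model (0.0877).

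Because Atf4 acts through a short DNA element, the promoters were searched for the core TGATGNAA on both strands, in windows from 250 bases before to 50 after each annotated start (RefSeq, GRCm38.p6). Of the 41 members, 26 had a window, and 3 of these held the core, Slc7a11, Slc1a4 and Slc7a7. Among all genes with a window, 4.511% held it, as did 3.969% of all windows. The Slc7a11 and Slc1a4 windows are shown as those of members that fell, and the Slc7a7 window as that of a member that rose. Capitals mark the matches, and all run 5′ to 3′ on the minus strand.
Slc7a11 chr3:50443564-50443863: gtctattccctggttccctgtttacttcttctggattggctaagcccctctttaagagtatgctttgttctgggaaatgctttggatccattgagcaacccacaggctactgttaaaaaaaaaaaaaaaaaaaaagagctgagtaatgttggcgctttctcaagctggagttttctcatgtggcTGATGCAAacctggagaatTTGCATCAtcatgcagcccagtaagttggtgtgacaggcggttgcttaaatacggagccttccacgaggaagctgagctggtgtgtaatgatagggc
Slc1a4 chr11:20332664-20332963: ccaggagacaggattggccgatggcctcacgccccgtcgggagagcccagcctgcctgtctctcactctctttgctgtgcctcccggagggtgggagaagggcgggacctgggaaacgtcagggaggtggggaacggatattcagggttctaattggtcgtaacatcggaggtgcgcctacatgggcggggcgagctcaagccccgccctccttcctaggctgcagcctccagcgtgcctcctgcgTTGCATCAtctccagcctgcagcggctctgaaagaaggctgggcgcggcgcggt
Slc7a7 chr14:54417895-54418194: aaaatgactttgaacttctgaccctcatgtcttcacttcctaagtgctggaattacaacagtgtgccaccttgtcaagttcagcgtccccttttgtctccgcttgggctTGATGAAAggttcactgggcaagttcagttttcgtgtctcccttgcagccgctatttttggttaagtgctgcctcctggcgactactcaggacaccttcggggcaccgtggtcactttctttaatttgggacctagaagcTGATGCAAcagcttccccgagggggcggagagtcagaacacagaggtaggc
In Slc7a11 the matches, TGATGCAA and its reverse TTGCATCA, start 66 and 47 bases before the annotated start, and in Slc1a4 a reverse match starts 4 bases before it. The core thus occurs in windows of members that moved in opposite directions. The antioxidant element core TGACNNNGC, searched the same way, was in 6 of the 26 members (Slc36a1, Slc38a2, Slc43a1, Slc6a9, Slc7a1, Slc7a6) and in 13.99% of all genes with a window. A match describes letters and not binding.

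The cationic carriers, which bring in arginine and lysine, split. Slc7a3 (ENSMUSG00000031297, chrX:101079210-101086020, minus strand) stood at 23.6, 1.71 and 10.9 CPM in WT at day 0 and 0.959, 1.05 and 0.331 at day 10, and at 28.7, 2.21 and 13.7 then 1.17, 1.65 and 0.376 in HBM. The days were separate, although in batch 19 they were close. It fell by 3.95 ± 1.21 in WT (adjusted p = 0.0225) and 3.81 ± 1.19 in HBM (0.0251), and these calls were lost without the batch 18 library of day 0 (0.0857 and 0.106) or any 1 library of day 10 (0.0599 to 0.0799 in WT, 0.053 to 0.0859 in HBM). Slc7a1 (ENSMUSG00000041313, chr5:148327410-148399904, minus strand), the widely expressed arginine carrier, stood at 143, 36.6 and 105 CPM then 27.4, 36.2 and 34.0 in WT and at 149.97, 77.0 and 124 then 32.7, 51.0 and 32.7 in HBM. In WT the batch 19 culture was nearly level, and the other cultures accounted for the fall of 1.55 ± 0.43 (0.0141), a call lost without batch 18 at day 0 (0.0804) or at day 10 (0.0579). In HBM Slc7a1 fell by 1.59 ± 0.43 (0.0118), lost without batch 18 at day 0 (0.0516).

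Slc7a2 (ENSMUSG00000031596, chr8:40862396-40922308, plus strand), the cationic carrier known from liver and macrophages, moved the other way. It stood at 15.7, 3.47 and 14.4 CPM in WT at day 0 and 68.8, 64.0 and 29.5 at day 10, and in HBM at 19.0, 4.75 and 12.8 then 86.3, 69.5 and 26.3. The days did not overlap, and batch 21 was the lowest culture at day 10. Slc7a2 rose by 2.27 ± 0.70 in WT (adjusted p = 0.0236) and 2.32 ± 0.70 in HBM (0.0214). The calls were lost without the day 0 library of batch 19 (0.0825 and 0.0871), or the day 10 libraries of batch 18 (0.0681 and 0.0766) or batch 19 (0.062 and 0.0513). At day 10 the macrophage markers were highest in batch 21, and their part in the Slc7a2 result was not tested.

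Slc6a9 (ENSMUSG00000028542, chr4:117834506-117875198, plus strand), a sodium- and chloride-coupled glycine carrier, stood at 66.3, 12.9 and 29.2 CPM in WT at day 0 and 6.14, 5.53 and 5.95 at day 10. In HBM it stood at 69.1, 13.9 and 34.0, then at 9.74, 11.8 and 8.65. The days were separate in both genotypes. It fell by 2.62 ± 0.74 in WT (adjusted p = 0.0152), a call that leaving out batch 18 at day 0 (0.0856) or batch 19 at day 10 (0.0557) ended, and its HBM change of -1.96 ± 0.72 missed the threshold (0.053; 0.0355 with the culture as a block). Of its exonic bases, 27.8% also lie in exons of Ccdc24 on the other strand, a gene with 257 counts in all 24 libraries against 18970 for Slc6a9. On that strand 9.94% lie in exons of Gm17114, with 1 count, and 0.89% in exons of B4galt2, with 68630 counts. How the counting treated strand is not given.

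**Figure D3:**
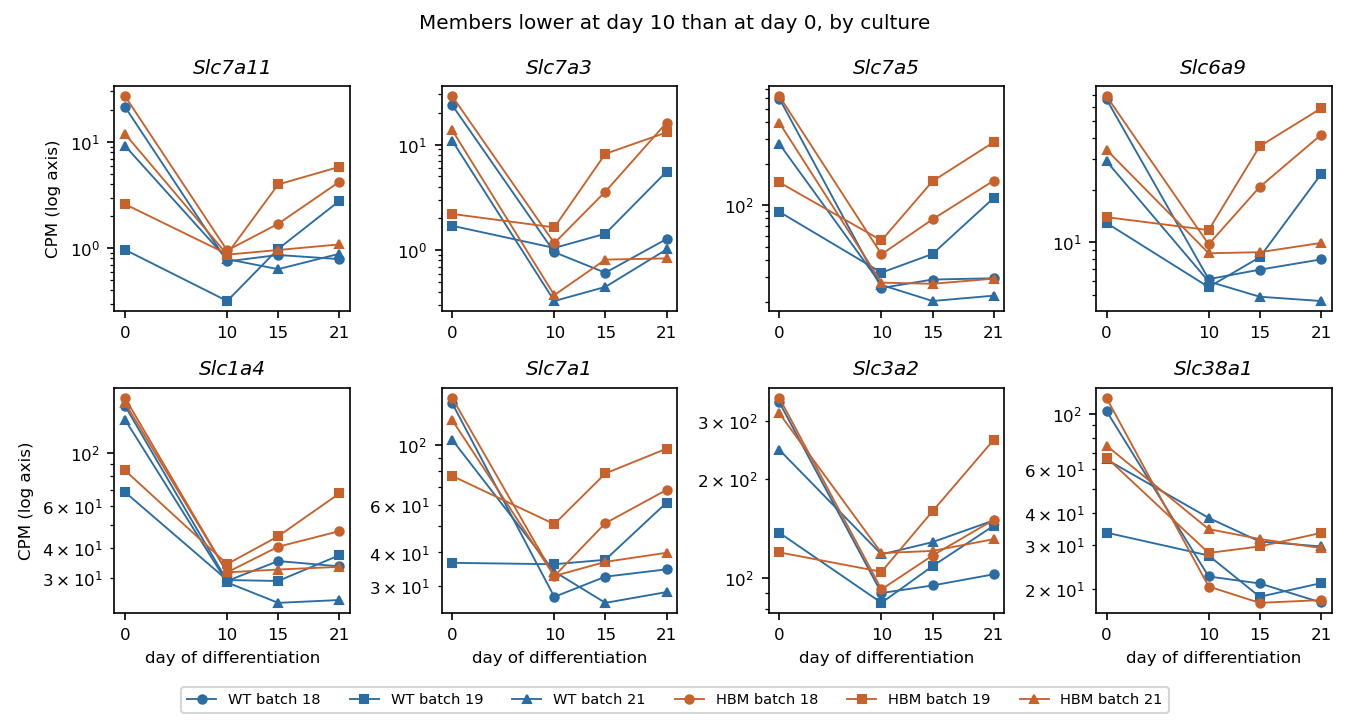
CPM over the days of differentiation (log axes) for 8 members lower at day 10 than at day 0, with 1 line per culture, WT in blue and HBM in orange, and a marker for each batch. All but Slc6a9 in HBM passed the threshold in both genotypes. The batch 19 cultures (squares) start lowest at day 0 for Slc7a5, Slc7a11, Slc7a3, Slc6a9, Slc1a4 and Slc7a1, and the HBM cultures of batches 18 and 19 lie highest at day 21 for Slc7a5, Slc7a11, Slc7a3 and Slc6a9.

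Among the members that rose, Slc36a2 (ENSMUSG00000020264, chr11:55158470-55185077, minus strand), a proton-coupled carrier of glycine, alanine and proline, had nearly no reads at day 0. No WT library had a count at day 0, and the day 10 levels were 5.88, 12.03 and 0.204 CPM (adjusted p = 0.00378). Against a floor of 3 counts per library, their mean of 6.04 CPM was at least 76.5-fold higher than day 0. The batch 21 library of day 10 held 8 counts. In HBM there was 1 count over the day 0 libraries, and the day 10 levels were 23.2, 34.2 and 1.32 CPM (adjusted p = 0.00143), a ratio of pooled counts of 1947 with a 95% counting interval of 349 to 76928. Every day 10 library lay above every day 0 library, with batch 21 far below the other cultures. Slc36a2 met the count minimum only through libraries of day 10 or later, so its choice favoured a rise from day 0. By day 21 the levels were 23.6, 36.3 and 8.87 in WT and 58.5, 41.1 and 18.7 in HBM. Slc36a2 is also known from fat cells, and the 8 adipocyte markers summed to 21.3 to 49.8 CPM at WT day 0 and 234 to 422 at day 10 (HBM 19.997 to 36.4, then 270.1 to 584). Lpl made up most of the WT day 10 sums, at 304, 168 and 163 CPM. Adipoq stood at 12.7, 0.734 and 0.0509 CPM in WT and 30.3, 0.852 and 0.0470 in HBM at day 10. All of the 8 but Cebpa were highest in batch 18 at day 10 in both genotypes, and Slc36a2 was highest in batch 19. Lep was at 0 in every day 0 library, and Plin1 also in HBM, and the part of adipocytes in the Slc36a2 result was not tested.

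Slc1a3 (ENSMUSG00000005360, chr15:8634124-8710764, minus strand), the glutamate and aspartate carrier first known from glia, stood at 17.8, 30.6 and 10.1 CPM in WT at day 0 and 139, 135 and 49.5 at day 10, and at 23.7, 25.2 and 8.50 then 126, 87.0 and 40.7 in HBM. Day 10 lay above day 0 throughout. It rose by 2.47 ± 0.55 in WT (adjusted p = 0.00365) and 2.14 ± 0.55 in HBM (0.00823), calls that held without any 1 library and were lost in a model of only the groups compared (0.0594 and 0.0534).

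Other light chains that pair with Slc3a2 rose. Slc7a8 (ENSMUSG00000022180, chr14:54722209-54781946, minus strand), which like Slc7a5 pairs with Slc3a2 but also takes small neutral amino acids, stood at 7.45, 8.10 and 27.9 CPM in WT at day 0 and 48.8, 44.9 and 111 at day 10. In HBM it stood at 5.92, 10.4 and 25.5, then at 30.1, 47.2 and 96.5. Batch 21 was the highest culture on both days, and the days did not overlap. Slc7a8 rose by 2.24 ± 0.67 in WT (adjusted p = 0.0201) and by 2.06 ± 0.67 in HBM (0.0293). The calls were lost without the day 0 libraries of batch 18 (0.0789 and 0.117) or 19 (0.0738 and 0.0992) or the day 10 library of batch 21 (0.0905 and 0.131), whereas with the culture as a block the adjusted p was 4.95e-07 and 9.44e-07. Slc7a7 (ENSMUSG00000000958, chr14:54369442-54417780, minus strand), which exports cationic amino acids with Slc3a2, rose by 1.88 ± 0.39 (adjusted p = 0.0020) and 2.23 ± 0.39 (0.000636), from 2.25 to 4.31 CPM at WT day 0 to 8.68 to 17.3 at day 10. Its exons overlap those of the better expressed Oxa1l on the other strand over 7.0% of their length, and how the counting treated strand is not given in the sources used here. Both light chains are known from macrophages, and the macrophage markers were highest in batch 21 as these genes were. Of 10 macrophage markers, 4 were called higher in WT and 5 in HBM, beside 12.2% and 14.1% of all genes. The part of macrophages in these results was not tested.

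Slc7a13 (chr4:19818725-19842218, plus strand), a light chain known from kidney, had 0 counts in WT and 3 in HBM over the day 0 libraries and 30 and 16 at day 10. It was called in both genotypes (adjusted p = 0.000372 in WT, 0.0436 in HBM). Against the same floor, the WT mean at day 10 was at least 3.23-fold higher than day 0. In HBM the ratio of pooled counts was 4.73 with a counting interval of 1.36 to 25.4. Slc7a13 met the count minimum only through libraries of day 10 or later. Its choice thus favoured a rise from day 0, and these calls are no independent support for one. The HBM call was lost with DESeq2 (0.0878), without a low-count filter (0.0933), and without the day 0 library of batch 18 (0.151) or 21 (0.0745) or the day 10 library of batch 18 (0.096), 19 (0.0503) or 21 (0.111).

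**Figure D4:**
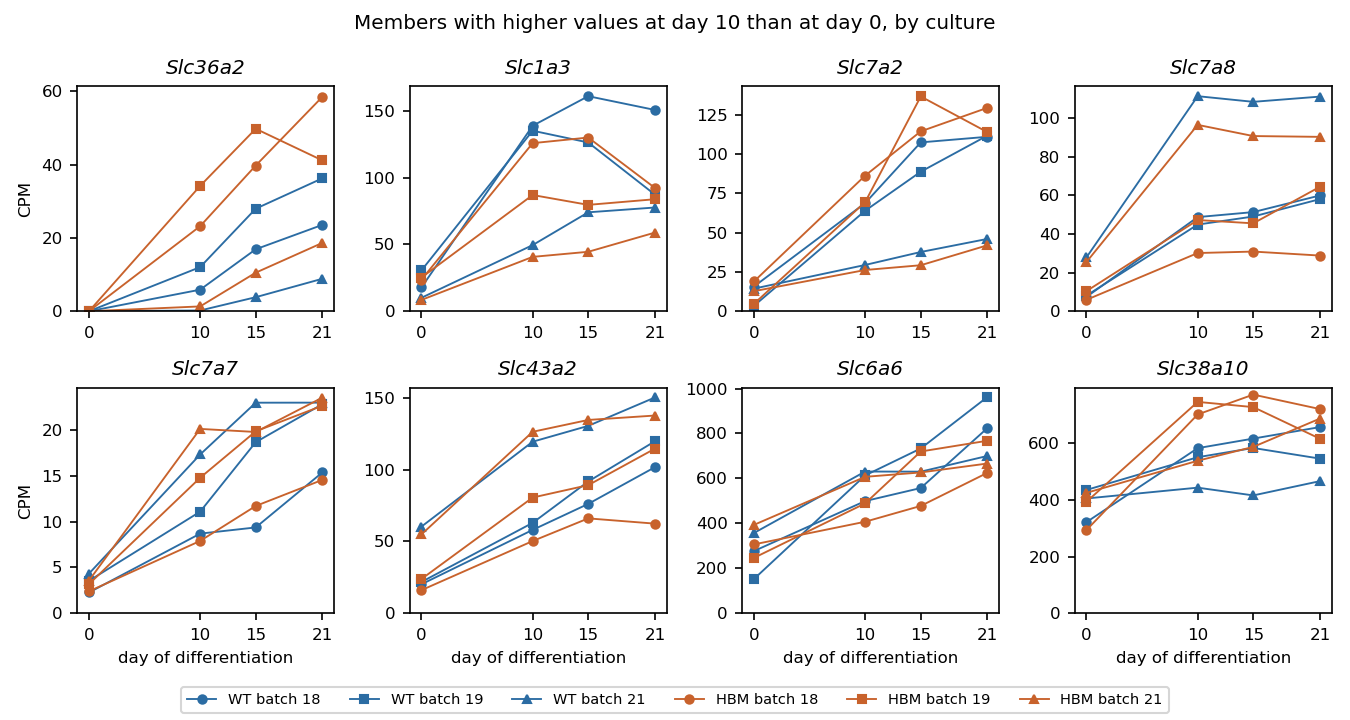
CPM over the days of differentiation (linear axes from 0) for 8 members with higher values at day 10 than at day 0, with 1 line per culture, WT in blue and HBM in orange, and a marker for each batch. Slc6a6 passed the threshold in WT only, Slc43a2 and Slc38a10 in HBM only, and the others in both. Batch 21 (triangles) is the highest culture for Slc7a8 and Slc43a2 and, from day 10 on, the lowest for Slc36a2, Slc1a3 and Slc7a2.

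Other members were called in both genotypes or in 1. Slc38a1, a glutamine carrier, fell by 1.20 ± 0.37 in WT (adjusted p = 0.0232) and 1.64 ± 0.37 in HBM (0.00401), the WT call being lost without batch 18 at day 0 (0.152) or at day 10 (0.0959) or batch 19 at day 10 (0.076). Slc6a17, a vesicular carrier of neutral amino acids in neurons, fell by 1.499 ± 0.27 and 1.60 ± 0.28 (0.000871 and 0.000556). Called in WT only were the taurine carrier Slc6a6 (1.15 ± 0.25), the proton-coupled family member Slc36a4 (0.44 ± 0.12), Slc6a9 and the branched-chain amino acid carrier Slc6a15 (-2.40 ± 0.79, from 0.568 to 1.39 CPM at day 0 to at most 0.342 at day 10). Called in HBM only were the noradrenaline carrier Slc6a2 (3.60 ± 0.83), the facilitator of leucine and its kin Slc43a2 (1.44 ± 0.50), Slc38a10 (0.84 ± 0.19) and the lysosomal Slc36a1 (0.46 ± 0.16). Leaving out 1 library ended the calls of Slc36a4 (WT day 0 batch 19, adjusted p = 0.0615), of Slc6a15 (WT batch 18 at day 0, 0.131, or at day 10, 0.119, or batch 21 at day 10, 0.103), of Slc36a1 (HBM batch 18 or 19 at day 0, 0.144 and 0.0595, or 19 or 21 at day 10, 0.0881 and 0.118) and of Slc43a2 (HBM batch 18 or 19 at day 0, 0.153 and 0.131, or 19 or 21 at day 10, 0.0661 and 0.161). In a model of only the groups compared, the WT calls of Slc6a6 (adjusted p = 0.1) and Slc6a17 (0.0542) and the HBM call of Slc6a2 (0.0509) were lost. So were the WT calls of Slc38a1, Slc36a4, Slc6a15, Slc6a9, Slc7a1 and Slc7a7 and the HBM calls of Slc36a1 and Slc43a2. Slc3a2, Slc7a2, Slc7a3 and Slc7a8 lost theirs in both genotypes in that model. A fit that blocks on the culture called 13 members up and 11 down in WT (38.5% of all genes, 19.7% higher and 18.8% lower) and 14 up and 11 down in HBM (38.2%, 20.5% higher and 17.7% lower). That block added the cationic and neutral exchanger Slc7a6 in both genotypes, at -0.55 ± 0.12 in WT (0.00293) and -0.43 ± 0.12 in HBM (0.0128).

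Among members that passed in neither genotype, Slc38a2 (ENSMUSG00000022462, chr15:96687392-96699730, minus strand), the sodium-coupled carrier that many cells induce when starved of amino acids, stood at 253, 205 and 198 CPM in WT at day 0 and 232, 214 and 224 at day 10, and at 245, 287 and 196 then 190.3, 201 and 186 in HBM. The WT days overlapped, and the change was 0.03 ± 0.15 (adjusted p = 0.895). In HBM the change of -0.33 ± 0.15 did not pass (0.104) and passed with the culture as a block (0.0235). Slc1a5 (ENSMUSG00000001918, chr7:16781340-16798274, plus strand), the glutamine carrier, followed the batch and not the day: 79.7, 58.6 and 24.4 CPM at WT day 0 against 73.0, 56.6 and 22.3 at day 10, with changes of -0.10 ± 0.61 (0.918) and, in HBM, -0.14 ± 0.61 (0.891). Slc38a9 (ENSMUSG00000047789, chr13:112660751-112738749, plus strand), the lysosomal carrier that signals arginine to mTORC1, stood at 11.3, 6.42 and 11.5 then 13.8, 12.8 and 11.6 in WT, a change of 0.39 ± 0.19 (0.138), and 0.33 ± 0.19 (0.214) in HBM. In all, 19 members passed in neither genotype, among them Slc1a6, Slc6a8, Slc38a4, Slc38a6, Slc38a7, Slc43a1 and Slc43a3.

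Between day 10 and day 21 none of the 41 members was called in either genotype, nor any of the 16592 genes (0%). At an unadjusted p under 0.05 there were 2 members in WT and 5 in HBM, beside 707 and 535 of all 16592 genes. The 5 in HBM were Slc3a2, Slc6a9, Slc7a11, Slc7a3 and Slc7a5, all with higher values at day 21. In HBM Slc7a5 stood at 151, 286 and 29.3 CPM at day 21, which is 3.42, 5.17 and 1.07 times the day 10 level of the same culture. In WT it stood at 29.5, 113 and 22.1, or 1.18, 3.48 and 0.836 times. Slc7a11 was 4.44, 6.63 and 1.25 times its day 10 level in HBM and 1.05, 8.78 and 1.12 times in WT, and Slc6a9 was 4.25, 5.003 and 1.15 times in HBM and 1.30, 4.45 and 0.772 times in WT. The values at day 21 were thus high in both batch 19 cultures and in the HBM culture of batch 18, and near the day 10 level in both cultures of batch 21 and the WT culture of batch 18. The groups of day 10 and day 21 overlapped for Slc7a5 in both genotypes. DESeq2 called no member either. Blocking on the culture, Slc7a7 was called higher at day 21 in WT (0.76 ± 0.15, adjusted p = 0.0426), where 0.554% of all genes were called (0.452% higher and 0.102% lower), and no member was called in HBM (0.0964% of all genes).

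The genotypes were compared on each day to see whether the HBM line alters the transporters. Without a block no member was called at day 0, 10, 15 or 21, nor when the 4 libraries of a culture were added up, and no gene of the table was (0%). At an unadjusted p under 0.05 there were 1, 0, 1, 3 and 1 members. Over all genes there were 701, 476, 347 and 356 of 16592 on the 4 days and 555 of 18387 for the summed counts. DESeq2 called no member in these comparisons. Libraries of the same batch pair the genotypes, and with a batch term for each day as the block 4 values passed, all with HBM higher. At day 10 the member was Slc36a2, at 1.83 ± 0.25 (adjusted p = 0.0138, and 0.0138 to 1 over the alternatives), where 0.669% of all genes were called higher. Within the batches HBM was 3.94, 2.84 and 6.47 times WT at day 10, 2.35, 1.78 and 2.74 times at day 15, and 2.48, 1.13 and 2.10 times at day 21. HBM was above WT in each pair, while the unpaired groups overlapped on each of these days. The sum of the osteoblast markers moved the same way, at 44085 to 96526 CPM in HBM at day 10 against 29829 to 52297 in WT. Col1a1 made up most of it, at 70331, 90513 and 43378 CPM in HBM against 44340, 49719 and 29391 in WT. Runx2 in batch 21 went the other way (64.8 CPM in HBM, 68.6 in WT). Without a block 0 of the 8 markers were called between the genotypes at day 10. The part of these markers in the Slc36a2 difference was not tested.

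Slc6a9 was called at day 15 (1.55 ± 0.25, adjusted p = 0.0298, and 0.0298 to 1 over the alternatives, with 0.241% of all genes higher) and at day 21 (1.59 ± 0.24, 0.0284, and 0.0284 to 1, with 0.157% of all genes higher and 0.0844% lower). At day 15 it stood at 20.8, 35.6 and 8.77 CPM in HBM and 6.96, 8.201 and 4.87 in WT, so that every HBM library lay above every WT library. At day 21 it stood at 41.4, 58.8 and 9.91 in HBM and 7.97, 24.6 and 4.597 in WT, where the groups overlapped while each batch had HBM higher, by 5.20, 2.39 and 2.16 times. At day 0 the ratios were 1.04, 1.08 and 1.16. Slc1a4 was called at day 21 (0.61 ± 0.095, 0.0298, and 0.0298 to 1 over the alternatives), at 47.1, 67.9 and 33.4 CPM in HBM against 33.6, 37.4 and 24.3 in WT, again with overlapping groups and HBM higher in each batch by 1.40, 1.81 and 1.38 times. With 1 batch term for all days none of these passed, and no member was called at day 0 with a batch term for each day (0.127% of all genes, 0.0121% higher and 0.115% lower). The summed counts gave no member with the batch as a block either (0%).

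The order within the pairs was also counted for each member. Over the 9 pairs of days 10, 15 and 21, HBM was above WT in 9 for Slc7a5, Slc7a11, Slc1a4, Slc6a9, Slc36a2 and Slc38a10, and below WT in 9 for Slc1a3 and Slc6a6. These are 6 and 2 of 41 members (14.6% and 4.88%), and over all genes tested 6.16% were higher and 6.73% lower in all 9 pairs. The pairs of 1 batch on different days share a culture and are not independent. For Slc7a5 HBM was 5.11, 2.54 and 1.33 times WT at day 21 (1.38 ± 0.32 with the batch term, adjusted p = 0.0978), and for Slc7a11 5.36, 2.10 and 1.23 times. For Slc1a3 HBM stood at 92.3, 83.9 and 58.9 CPM at day 21 against 151, 87.3 and 77.7 in WT. The unpaired groups did not overlap for 5 members at day 10 (Slc1a4, Slc38a2, Slc6a17, Slc6a9 and Slc7a11), 1 at day 15 (Slc6a9) and 1 at day 21 (Slc6a15), and for none at day 0. Over all genes tested the groups did not overlap for 11.7% at day 10, 8.78% at day 15, 9.38% at day 21 and 3.12% at day 0, so the members' counts were near or below that background.

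**Figure D5:**
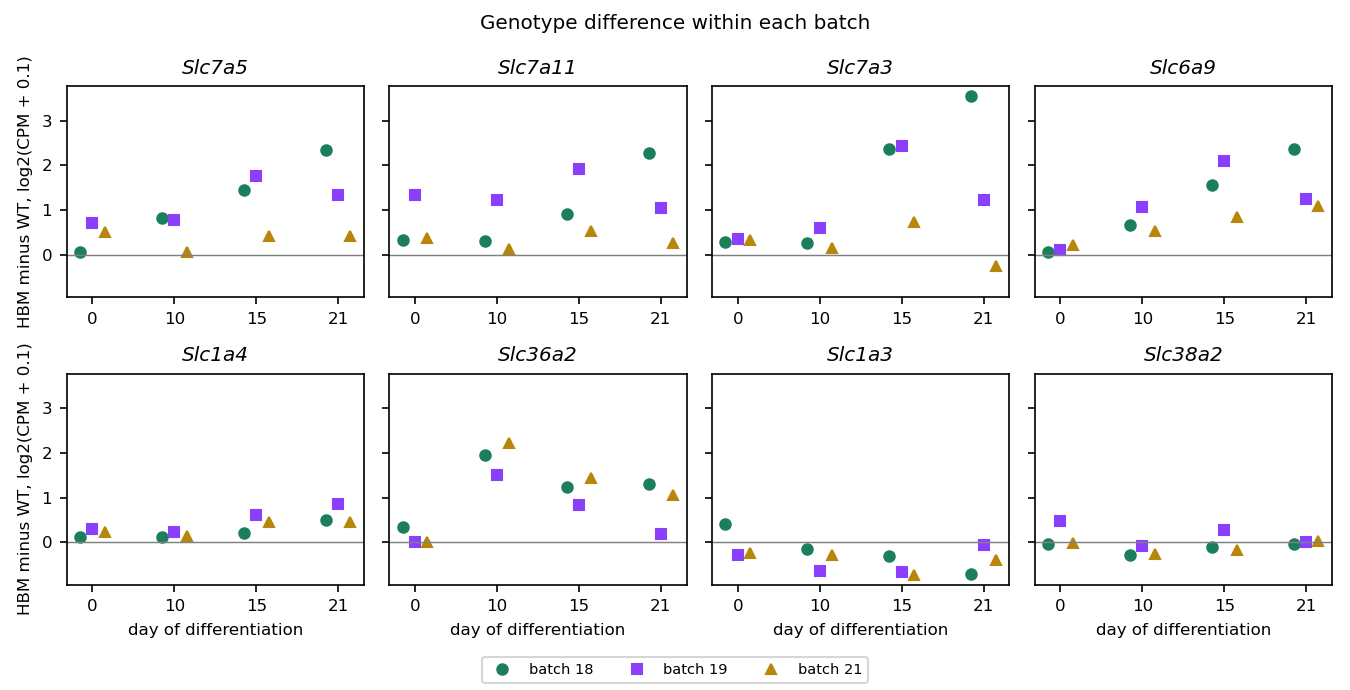
Difference between HBM and WT within each batch, as log2(CPM + 0.1), on the days of differentiation for 8 members, with 1 point per batch. Points above the line are higher in HBM. Slc6a9, Slc1a4, Slc7a5, Slc7a11 and Slc36a2 lie above it in each batch from day 10 on, and Slc1a3 lies below it on those days.

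Genes that work beside the transporters were counted in lists chosen with earlier results of these data known. Of 26 genes of the Atf4 pathway other than transporters, 16 were called lower and 1 higher from day 0 to day 10 in WT. Over all genes 14.1% were called lower and 12.2% higher. In HBM 12 were called lower and 1 higher, beside 12.4% and 14.1% of all genes. Values lay below 0 for 24 of the 26 in WT and 21 in HBM, with medians of -1.29 and -0.96 against -0.0151 and -0.00187 over all genes. The largest falls in WT were in Trib3, a pseudokinase that restrains Atf4 signalling (-5.22 ± 1.39, adjusted p = 0.0105), and Chac1, which degrades glutathione (-3.38 ± 0.95, 0.0144), and in HBM in Trib3 (-4.79 ± 1.35, 0.0149) and Cth, which makes cysteine (-2.81 ± 0.72, 0.00819). Asparagine synthetase, Asns, fell by 2.88 ± 0.62 and 2.43 ± 0.60 (0.00262 and 0.00697), and Ddit3, a stress transcription factor, by 1.73 ± 0.58 and 1.78 ± 0.58 (0.034 and 0.0297). Atf4 itself fell by 1.05 ± 0.27 in WT (0.00831), and its HBM value of -0.71 ± 0.27 did not pass (0.0576). The gene called higher in both was Eif2ak3, the kinase that senses misfolded protein (0.43 ± 0.12 and 0.44 ± 0.12). The total called dropped to 10 in WT without the day 0 library of batch 18 (20.8% of all genes called in that fit). In HBM it dropped to 4 without that library (16.6%) and to 7 without the day 10 library of batch 18 or 21 (18.0% and 20.8%). A model of only the groups compared left 7 and 8 (3.10% and 13.9%). Asns had the same course as Slc7a5, at 274, 75.5 and 154 CPM at WT day 0, 21.2, 22.1 and 25.3 at day 10, and 126, 175 and 35.6 in HBM at day 21 against 29.8, 84.8 and 26.7 in WT. Between the genotypes none of the 26 passed without a block. With a batch term for each day, 2 at day 10, 4 at day 15 and 3 at day 21 were called higher in HBM (Nupr1 and Stc2 on all 3 days, Aldh18a1 on the later days and Mthfd2 at day 15). Over all genes 0.669%, 0.241% and 0.157% were called higher on these days.

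All 20 cytosolic aminoacyl-tRNA synthetases, which load amino acids onto tRNA, had lower values at day 10 than at day 0 in both genotypes. The threshold was passed by 20 in WT and 18 in HBM, beside 14.1% and 12.4% of all genes called lower. Their medians were -0.90 and -0.78. The largest falls were in Cars (-1.58 ± 0.23 and -1.498 ± 0.23, adjusted p = 0.000138 and 0.000201), with Aars next in WT (-1.51 ± 0.32) and in HBM (-1.44 ± 0.32). A model of only the groups compared called 5 in WT and 15 in HBM, beside 3.10% and 13.9% of all genes. None passed between the genotypes with or without the batch term. The 28 genes of amino acid sensing at mTORC1 were mostly level, with 2 called higher and 3 lower in WT and 1 higher in HBM, and medians of -0.02 in both. These counts lie below the 26.2% and 26.5% of all genes called, so they say little about the list. Sesn1, a leucine sensor, rose by 1.77 ± 0.32 in WT (0.000859) and 1.90 ± 0.33 in HBM (0.000517), and in WT Castor2, a relative of the arginine sensor Castor1, rose by 0.64 ± 0.16 (0.0059). The WT falls were in Castor1 (-0.77 ± 0.25), Rheb (-0.33 ± 0.090) and Rraga (-0.29 ± 0.078).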

How the data were processed

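The deposited table holds whole-number counts of reads per gene, 1 column per library. The tools named for it are cutadapt 3.4, STAR 2.7.8a and featureCounts (Subread 2.0.1), with genome mm10, per the submitters' processing notes. How strand and multi-mapped reads were treated, and the annotation release, are not stated there. Of 54232 rows, 54164 matched GENCODE M21, and the other 68 held at most 0.00337% of a library's counts. Symbols, exon lengths and mm10 coordinates come from GENCODE M21.

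The counts were tested with edgeR 4.0.16 (R 4.3.3, TMM scaling, filterByExpr) in 1 quasi-likelihood model of the 8 groups without a block, over 16592 genes (18387 where counts were summed per culture), at an adjusted p under 0.05. Alternatives were DESeq2 1.42.0, other size factors, no low-count filter, a model of only the groups compared, each library left out, and blocks, with those for the Atf4 and synthetase counts added after seeing the data. The script was tested on simulated data. Counting intervals and floors (3 counts) cover counting error only. The batch labels pair the samples: same-batch libraries of both genotypes deviated together (r across genes 0.542 to 0.815 in 12 pairs, against -0.653 to 0.127 in 24 other pairs).

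Values in every library are given for the 5 members of largest change in each direction among those called in both genotypes, for every member called between genotypes, and for Slc3a2, Slc7a5, Slc7a11, Slc1a5, Slc1a4, Slc38a2 and Slc38a9. From the lists, the 2 called genes of largest change in each direction are named, and always Atf4, Ddit3, Trib3 and Asns. Slc6a9 qualified through a blocked fit. The members and lists were chosen with earlier results of these data known.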

Additional observations from a re-analysis of the deposited data

How the results depend on the processing

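From day 0 to day 10, a model of only the groups compared left 2 members called in WT and 9 in HBM, against 18 in each (472 and 2087 of all genes, against 4349 and 4404). Leaving out 1 library gave 11 to 22 members in WT and 11 to 19 in HBM, lowest without the day 0 library of batch 18, where 20.8% and 16.6% of all genes were called, and highest without that of batch 21 (32.5% and 26.1%). The cause was not tested. With the culture as a block, 1 member passed from day 10 to day 21 in WT. With a batch term for each day as the block, 1 member passed between the genotypes at day 10, 1 at day 15 and 2 at day 21, against 0 without it. Single-member calls kept their side of the threshold in 39 of 40 under DESeq2, 40 of 40 under median-of-ratios size factors, 38 of 40 without the filter, 36 of 36 with the culture as a block and 192 of 240 with 1 library left out, but in only 15 of 37 in the model of only the groups compared, and in none of these did the direction turn. The blocked fits were not repeated with libraries left out. With 3 cultures per genotype, members at few counts, such as Slc7a13, are poorly resolved.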

Other observations

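Of 17 tested transporters in a list of other families, which holds mostly amino acid carriers and also the choline carrier Slc44a1, 3 rose and 2 fell from day 0 to day 10 in WT and 6 rose in HBM (edgeR, without a block). Over all genes 26.2% and 26.5% were called, so these counts say little about the list. In WT the largest rises, as log2 changes, were in Mfsd12, a lysosomal cysteine importer (1.13), and Slc44a1 (1.05). The falls were in Slc17a7, the vesicular glutamate carrier (-2.35), and Slc25a22, a mitochondrial glutamate carrier (-0.51). In HBM the largest rises were in Slc17a8 (2.53) and the peptide carrier Slc15a2 (1.86).

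Of 18 tested genes of glutamine, proline and serine metabolism, 1 rose and 7 fell in WT and 1 rose and 4 fell in HBM, beside the same 26.2% and 26.5% of all genes, and the HBM count is near that background. Glul, which makes glutamine, rose by 1.51 in WT and 1.74 in HBM on the log2 scale. Bcat1, the cytosolic branched-chain aminotransferase, fell by 2.24 on that scale in WT, and with a batch term for each day it was higher in HBM than in WT at day 10 (0.93 ± 0.12, adjusted p = 0.0138), day 15 (1.18 ± 0.12, 0.00768) and day 21 (1.14 ± 0.12, 0.0111).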
